A study of Homo sapiens with 12 samples.

Results

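TC32 is an Ewing sarcoma cell line, and its response to knockdown of PRKDC was read from 3 samples with siPRKDC and 3 samples with the control siRNA siNeg. Both siRNAs were given at 20 nM, and total RNA was taken 48 h later and hybridized to Illumina HumanHT-12 v4 BeadChips, 1 array per sample. Probes were used where every array of at least one of the groups detected them (detection p below 0.05). This kept 13849 of 47322 probes, and those paired with a single gene stood for 8863 of the 20046 genes with a probe, each by its brightest kept probe. The same 2 treatments in HCT116, a colorectal carcinoma line, were used once, to test whether a change differed between the lines, with 3 samples of siPRKDC and 3 of siNeg. Nothing in the labels says that replicates came from separate cultures, so p-values cover the spread between these arrays, some or all of it possibly technical. A single siRNA label stood for the knockdown, so that changes that go with lower PRKDC and changes that go with the siRNA sequence itself cannot be told apart in these groups.

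PRKDC encodes the catalytic subunit of the DNA-dependent protein kinase, a very large enzyme of the family that also holds ATM, ATR and mTOR. With the Ku proteins it binds broken DNA ends and joins them by non-homologous end joining, and the kinase also takes part in ribosomal RNA processing and in transcription. Ewing sarcoma is driven by a fusion of a FET gene, usually EWSR1, with an ETS gene, usually FLI1. The fusion protein turns many neural genes on and holds many mesenchymal genes down.

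Values below are normalized log2 intensities, and a change is siPRKDC minus siNeg on that scale. Array medians before normalization ran from 73.6 to 74.1 with siPRKDC and from 72.4 to 73.3 with siNeg, and 15396 to 16216 probes were detected per siPRKDC array, against 16324 to 16603 per siNeg array. Correlations over probes were 0.9925 to 0.9934 among siPRKDC arrays, 0.991 to 0.9928 among siNeg arrays and 0.9595 to 0.9647 between the groups. No array stood apart from its group. Of 14 Ewing sarcoma markers with a probe, 10 were detected on all 6 arrays, among them CD99, NKX2-2, STEAP1 and LIPI, while NPY1R and GLI1 were detected on none. Their summed linear level was 2850 to 3028 with siPRKDC and 2367 to 2408 with siNeg. Of 11 Ewing markers that passed the filter, 6 were called higher and 1 lower. The longer list of genes raised by the fusion, given below, went both ways. Markers of other cell types detected on all 6 arrays were 1 of 18 for colon epithelium (CEACAM6), 1 of 11 for leukocytes (CD68), 2 of 9 for fibroblasts (PDGFRB and THY1) and 0 of 8 for endothelium. The summed fibroblast level was 218.6 to 225.8 with siPRKDC and 307 to 347.7 with siNeg, and that of the colon list was 504 to 528.6 with siPRKDC and 850.8 to 912.5 with siNeg. Each sum takes in every marker with a probe, also those at the array floor. Only 3 fibroblast markers passed the filter, 2 of them called lower, and 2 colon markers, 1 of them called lower, with none called higher. These sums thus rest on few genes and do not show a fall of either list as a whole.

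PRKDC itself was lower in every siPRKDC sample. Its brightest probe read 5.11, 4.94 and 5.56 with siPRKDC, against 6.49, 6.50 and 6.78 with siNeg. The groups did not overlap, and the fall was 2.61-fold (log2 change -1.39, SE 0.13, adjusted p = 9.72e-08). A second probe changed by -0.78 and was detected on 1 of 3 siPRKDC arrays, and another fell at least 1.608-fold, since no siPRKDC array detected it. Without background correction the change of the brightest probe was -0.71 and was still called. Of the fusion partners, EWSR1 changed by 0.24 on its brightest probe and was not called (adjusted p = 0.064). Its other probes were called, at 0.26 and 0.49, as was the brightest in 8 of the alternatives tried. FLI1 overlapped between groups (change 0.14, adjusted p = 0.425). Whether these probes read the fusion transcript was not examined here.

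**Figure D1:**
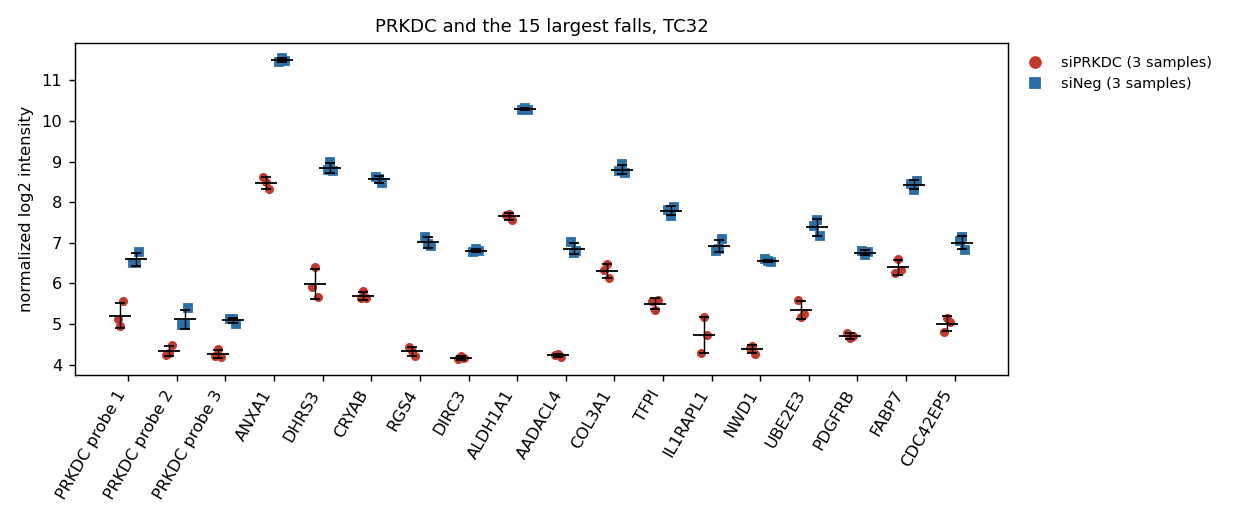
Normalized log2 intensity (vertical axis) of the 3 kept PRKDC probes and of the 15 genes with the largest falls, along the horizontal axis. Circles are the 3 siPRKDC samples and squares the 3 siNeg samples, with bars for the mean ± SD. No gene's groups overlap. RGS4, DIRC3, AADACL4, NWD1 and the PRKDC probes other than the brightest lie near the array floor with siPRKDC, as does the lowest IL1RAPL1 sample.

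Across the genome, close to as many genes rose as fell. Normalization gave all arrays the same distribution, which favours an even split, so the balance itself was not tested. Of 8863 genes, 4250 were called at an adjusted p below 0.05, or 48%, with 2164 higher (24.4%) and 2086 lower (23.5%) with siPRKDC. The groups did not overlap for 4849 genes (54.7%). Large changes leaned downward, and of 295 called genes that changed at least 2-fold (3.33%), 111 were up and 184 down. Because close to every second gene was called, a count in a gene list is read below against 24.4% up and 23.5% down. The median standard error was 0.106, so small shifts passed the test, and the sizes are given with each gene. Calls were made for 53.5% of genes above the median level and 42.4% of those below it. At the level of probes, 5918 of 13849 were called (42.7%). Among 979 called genes with further kept probes, the other probes all moved the same way for 827 (84.5%), while 35 had another probe called in the opposite direction.

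**Figure D2:**
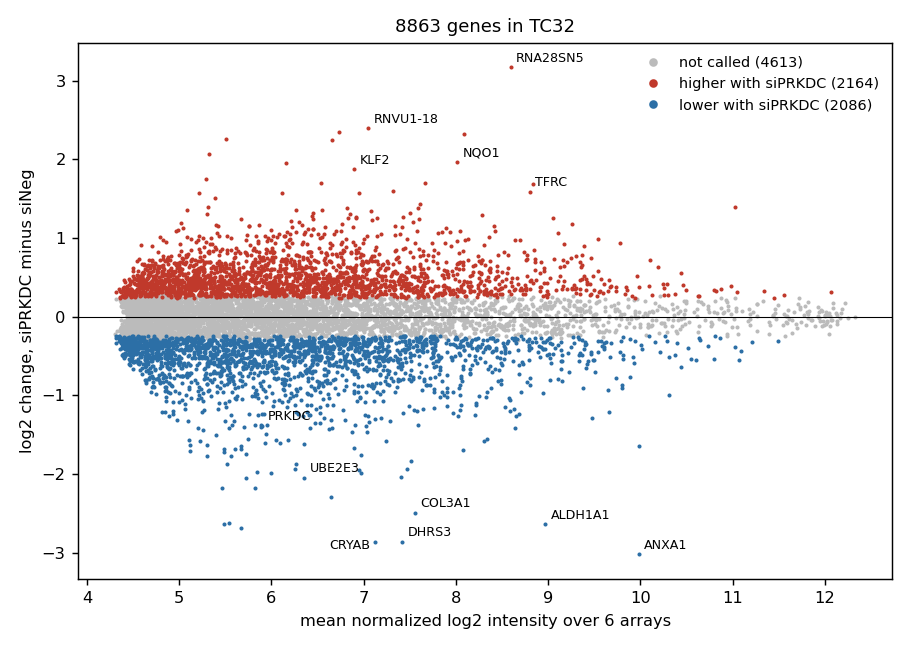
Change with siPRKDC (vertical axis, log2) against mean normalized log2 intensity over the 6 arrays (horizontal axis) for 8863 genes. The 2164 genes called higher and 2086 called lower spread over the whole range of levels, with ANXA1, DHRS3 and CRYAB lowest and RNA28SN5 highest.

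The deepest falls were those of ANXA1, DHRS3 and CRYAB. ANXA1, a calcium-dependent phospholipid-binding protein that restrains inflammation, read 8.61, 8.49 and 8.32 with siPRKDC, against 11.46, 11.56 and 11.48 with siNeg. With siNeg it was among the bright genes of these cells, and it fell 8.12-fold (log2 change -3.02, SE 0.10, adjusted p = 1.29e-13). CRYAB, a small heat shock protein, read 5.65, 5.81 and 5.64 with siPRKDC, against 8.62, 8.58 and 8.47 with siNeg, a 7.27-fold fall. Its genomic neighbour HSPB2, another small heat shock protein, was lower too (log2 change -1.50). The retinoid enzyme genes DHRS3, which reduces retinaldehyde to retinol, and ALDH1A1, which oxidizes retinaldehyde to retinoic acid, act on the same compound and both fell. DHRS3 read 5.91, 6.39 and 5.65 with siPRKDC, against 8.78, 8.99 and 8.77 with siNeg. ALDH1A1 read 7.69, 7.71 and 7.55 with siPRKDC, against 10.28, 10.31 and 10.27 with siNeg. Over the retinoid list as a whole, 11 of 24 genes with a probe were measured, with 2 up and 4 down (median -0.09). The 2 rises became 1 without siNeg replicate 1 or any 1 siPRKDC array and 0 without siNeg replicate 2.

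RGS4, COL3A1 and PDGFRB were among the other large falls. RGS4, which speeds the shut-off of G proteins, read 4.44, 4.32 and 4.22 with siPRKDC, where 1 of 3 arrays detected it, against 7.15, 6.96 and 6.91 with siNeg. The related RGS2 fell by 1.08, whereas GNG12, a G-protein gamma subunit not detected on any siNeg array, was at least 1.895-fold higher. PDGFRB, the platelet-derived growth factor receptor of mesenchymal cells, read 4.78, 4.65 and 4.69 with siPRKDC, against 6.80, 6.69 and 6.77 with siNeg. COL3A1, a fibrillar collagen, read 6.33, 6.48 and 6.13 with siPRKDC, against 8.76, 8.94 and 8.71 with siNeg. Both groups of values were tight and far apart for these genes. TFPI, the inhibitor of the tissue factor pathway of clotting, fell by 2.29, and by 0.58 on the least affected of its probes. The fatty acid binding protein gene FABP7 fell by 2.04 and the synaptic adhesion gene IL1RAPL1 fell by 2.18, which was detected on 2 of 3 siPRKDC arrays. CDC42EP5, an effector of the CDC42 GTPase, fell by 1.99. DIRC3, a long non-coding RNA, and AADACL4 were detected on no siPRKDC array and were at least 5.283-fold and at least 5.486-fold lower. NWD1 fell by 2.18 and was detected on 2 of 3 siPRKDC arrays. UBE2E3, a ubiquitin-conjugating enzyme, read 5.59, 5.18 and 5.23 with siPRKDC, against 7.41, 7.56 and 7.16 with siNeg.

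The rises were led by structural RNAs of the ribosome and the spliceosome, which as a rule carry no poly(A) tail. RNA28SN5, a copy of the large ribosomal RNA, read 10.338, 10.148 and 10.053 with siPRKDC, against 6.681, 7.003 and 7.337 with siNeg, a 9.02-fold difference (log2 change 3.17, SE 0.13, adjusted p = 1.08e-12). Its other probe rose by 1.68. RNA5S9, a copy of the small 5S ribosomal RNA, rose by 2.32. The U1 spliceosomal RNA was read by probes for RNVU1-18 (2.40), RNU1-3 (2.35) and RNVU1-7 (2.25), which all rose. Since these genes are near-identical copies, a signal cannot be assigned to 1 of them. RNU4-2, a U4 RNA, rose by 2.07 and was detected on 1 of 3 siNeg arrays. In all, 12 of 16 ribosomal and spliceosomal RNA genes with a probe were measured, 9 of them on all 6 arrays. Of the 12, 11 rose and none fell, with a median of 1.82. With every array at a detection p below 0.01, 8 rose and none fell of 9. RN7SK, the RNA that holds the elongation factor P-TEFb inactive, read 8.45, 8.10 and 8.44 with siPRKDC, against 6.82, 6.98 and 6.88 with siNeg. RPPH1, the RNA of ribonuclease P, rose by 0.85, whereas the Y RNA gene RNY4 fell by 0.89. Among 8 such other small RNAs, 4 rose and 2 fell.

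Small nucleolar RNAs, which guide the modification and cutting of ribosomal RNA, rose as well. Of 39 listed with a probe, 25 were measured, 20 of them on all 6 arrays, with 14 up, 1 down and a median of 0.32. The fall was called without siPRKDC replicate 2 but not without any other array. With every array at a detection p below 0.01, 11 rose and none fell of 18. SNORD3A, a copy of the U3 RNA needed for the first cuts of the ribosomal precursor, read 7.62, 7.36 and 7.37 with siPRKDC, against 6.40, 6.22 and 6.31 with siNeg. Its near-identical copies SNORD3D and SNORD3C rose by 1.25 and 1.05, and SNORA67 by 0.88. Sorted by the annotated kind of gene over all that were tested, 32 of 85 small nucleolar RNAs rose and 4 fell. Of 107 long non-coding RNAs, 10 rose and 38 fell, a balance opposite to that of the small RNAs. Some, such as DIRC3, passed the filter through siNeg alone, and how many did so was not counted. Protein-coding genes were even, with 2082 up and 2027 down of 8497. The labelling kit primes from poly(A) tails, and the level of untailed RNA on such arrays can move with RNA quality and labelling. These RNAs separated the groups on every array, and the siPRKDC arrays also detected fewer probes. The part of RNA quality in the changes described here was not tested.

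Histone genes come in copies that are read in S phase without a tail. RNAs that as a rule carry no tail also gave signal on these arrays. Whether the histone probes read tailed or untailed transcripts was not tested. Of 23 histone genes with a probe, 14 were measured, 10 of them on all 6 arrays, and 11 rose and none fell (median 0.40). The others passed the filter through 1 group. With every array at a detection p below 0.01, 7 rose and none fell of 10. H2BC5 led them, with 6.66, 6.54 and 6.71 with siPRKDC, against 4.37, 4.25 and 4.51 with siNeg, where 1 of 3 arrays detected it. A second H2BC5 probe rose by 1.14. H2AC20 rose by 0.72, and H2AC6, detected on no siNeg array, was at least 1.435-fold higher.

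**Figure D3:**
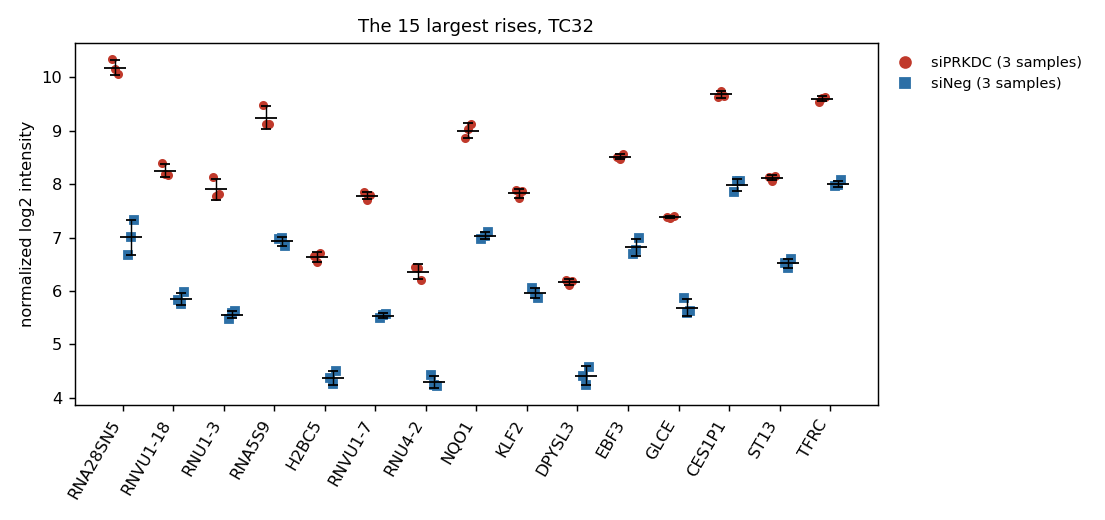
Normalized log2 intensity (vertical axis) of the 15 genes with the largest rises, along the horizontal axis. Circles are the 3 siPRKDC samples and squares the 3 siNeg samples, with bars for the mean ± SD. Ribosomal and spliceosomal RNAs take 6 of the 15 places, and no gene's groups overlap.

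The protein-coding genes among the 15 largest rises were NQO1, KLF2, EBF3, GLCE, ST13 and TFRC, beside H2BC5 and DPYSL3. NQO1, a quinone reductase and textbook target of the transcription factor NRF2, read 8.86, 9.03 and 9.12 with siPRKDC, against 6.97, 7.02 and 7.11 with siNeg, a 3.91-fold rise. Of 29 NRF2 targets and antioxidant enzymes measured (32 had a probe), 13 rose and 5 fell (median 0.19). Without siPRKDC replicate 3, 8 of the 29 rose. Thioredoxin reductase TXNRD1 rose by 1.24 on its brightest probe and by 1.10 on the other, and sulfiredoxin SRXN1 rose by 0.92. Glutathione peroxidase GPX1 and malic enzyme ME1 each fell by 0.66, so the list did not move as one. TFRC, the transferrin receptor that brings iron into cells, read 9.54, 9.62 and 9.63 with siPRKDC, against 7.97, 7.98 and 8.07 with siNeg. KLF2, a zinc-finger transcription factor, read 7.89, 7.73 and 7.87 with siPRKDC, against 6.05, 5.97 and 5.86 with siNeg. EBF3, a transcription factor of neural and stromal development, and GLCE, an enzyme of heparan sulfate synthesis, each rose by 1.70. ST13, an HSP70 co-chaperone, rose by 1.60, and the pseudogene CES1P1 rose by 1.69.

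Genes for the production of ribosomes leaned upward. Of 42 ribosome biogenesis and RNA polymerase I genes with a probe, 38 were measured, and 20 rose and 2 fell (median 0.28). NOP56, a core protein of the box C/D nucleolar particles, read 9.16, 9.09 and 9.15 with siPRKDC, against 8.10, 8.23 and 8.14 with siNeg. BOP1, which matures the large subunit, read 8.02, 7.93 and 8.10 with siPRKDC, against 7.03, 7.05 and 7.19 with siNeg. The polymerase subunit POLR1C rose by 0.84, the assembly factor RRS1 by 0.71 and GRWD1 by 0.77. MYC, which drives ribosome production, rose by 0.62. Ribosomal protein genes, by contrast, stood below the share over all genes in both directions. All 56 with a probe were measured, 5 rose (3 without siNeg replicate 3) and 5 fell, and 46 were not called (median 0.05). RPS23 rose by 1.21, while RPL29 fell by 0.63 and RPS21 by 0.60. Translation initiation and elongation factors were split, with 9 up and 8 down of 36.

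RNA-binding proteins of splicing also leaned upward. Of 37 SR proteins, hnRNPs and spliceosome genes measured, 15 rose and 4 fell (median 0.14), with 2 falls without siNeg replicate 2 and 1 without siPRKDC replicate 1. SRSF3 read 7.52, 7.73 and 7.39 with siPRKDC, against 6.09, 6.44 and 6.32 with siNeg. SRSF7 read 9.001, 8.905 and 9.055 with siPRKDC, against 7.824, 7.690 and 7.985 with siNeg. Both are SR proteins that bind exons and adjust splicing, and their groups were more than 1 log2 unit apart on average. HNRNPM rose by 0.90 and by at least 0.69 on its other probes.

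Amino acid synthesis genes leaned the opposite way. Cells short of amino acids raise a set of synthesis enzymes and tRNA synthetases through the transcription factor ATF4. Of 20 serine, glycine, cysteine and asparagine synthesis genes with a probe, 17 were measured, all on all 6 arrays, and 12 fell and 1 rose (median -0.62). Without siPRKDC replicate 2, 2 rose. ASNS, asparagine synthetase, read 7.54, 7.71 and 7.77 with siPRKDC, against 8.88, 8.84 and 8.58 with siNeg. BCAT1, which transfers nitrogen from branched-chain amino acids, read 7.02, 7.08 and 6.61 with siPRKDC, against 8.33, 8.30 and 8.20 with siNeg. The cysteine pathway enzymes CTH and CBS fell by 1.41 and by 1.08, with 2 more CTH probes at -0.64 and -0.57. PHGDH, the entry enzyme of serine synthesis, fell by 0.91, and the aspartate aminotransferase GOT1 fell by 0.79.

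Cytosolic tRNA synthetases, which charge tRNAs with amino acids, fell with them. Of 18 measured, 11 fell and 2 rose (median -0.42), and 1 rose without siNeg replicate 1 or 2 or siPRKDC replicate 1 or 3. YARS1 read 7.93, 7.94 and 7.92 with siPRKDC, against 8.85, 8.88 and 8.79 with siNeg. Falls were also called for AARS1 (-0.91), MARS1 (-0.84) and GARS1 (-0.80). Among mitochondrial synthetases, 2 of 14 rose and 4 fell, and 1 rose without siNeg replicate 1 or 2 or siPRKDC replicate 2 or 3. Among ATF4 stress regulators, 9 of 19 measured fell and none rose (median -0.24). TRIB3, a pseudokinase that ATF4 induces, read 5.76, 5.75 and 5.86 with siPRKDC, against 7.30, 7.18 and 6.96 with siNeg. DDIT4, an inhibitor of mTOR complex 1, fell by 0.90. ATF4 itself fell by 0.71 on its brightest probe and by 0.38 on another, while the remaining one changed by 0.23 and was not called. Amino acid transporters did not follow, since 8 of 20 rose and 3 fell (median 0.17), with SLC38A2 up by 0.60 and SLC1A4 by 0.55.

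Promoters of some of these genes are shown because they hold a short sequence, the CHOP-ATF4 composite element, which most of the genes lacked. It was searched as TGATGNAA on both strands from 250 bases before to 50 after the RefSeq gene start (GRCh38.p14). The first promoter listed for a gene was used, and 7256 of the 8863 genes had one. Among synthesis genes it was found in 4 of 13 promoters (30.8%), and in 5 of 15 promoters of cytosolic tRNA synthetases (33.3%), against 122 of 7256 promoters of the genes tested (1.68%) and 3.67% of all 27305 promoters in the table. All 9 of those genes fell, whereas of all 122 tested genes with the match 37 fell, 21 rose and 64 were not called. Besides ASNS, BCAT1, GOT1, AARS1, MARS1 and NARS1 (-0.52) they were MTHFD1L (-0.51), TARS1 (-0.47) and IARS1 (-0.46), which are named here because they hold the match. The list of ATF4 regulators held it in 2 of 16 promoters, and neither gene was called. Transporters held it in 4 of 17, with 1 gene up, 1 down and 2 not called. Below are 5 of the windows that lie wholly before the gene start, 20 bases on each side of the match in capitals, read along the gene's strand. They are chr7:97872449-97872496 (minus strand) for ASNS, chr12:24949122-24949169 (minus) for BCAT1, chr10:99430795-99430842 (minus) for GOT1, chr6:150866337-150866384 (plus) for MTHFD1L and chr16:70289666-70289713 (minus) for AARS1.
ASNS: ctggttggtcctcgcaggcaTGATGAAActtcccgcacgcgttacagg
BCAT1: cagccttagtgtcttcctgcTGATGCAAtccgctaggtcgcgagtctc
GOT1: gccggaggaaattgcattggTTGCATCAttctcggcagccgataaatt
MTHFD1L: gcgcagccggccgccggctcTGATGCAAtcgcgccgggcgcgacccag
AARS1: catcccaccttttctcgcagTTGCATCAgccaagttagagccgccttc
The GOT1 and AARS1 matches lie on the opposite strand. A match is a string of letters and no evidence of binding.

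Lysosomal genes formed another rising group. Of 41 lysosome and autophagy genes with a probe, 35 were measured, and 21 rose and 4 fell (median 0.37). ATP6V0B, a subunit of the proton pump that acidifies the lysosome, read 8.51, 8.58 and 8.69 with siPRKDC, against 7.51, 7.41 and 7.60 with siNeg. NPC2, which carries cholesterol out of the lysosome, read 9.66, 9.57 and 9.67 with siPRKDC, against 8.56, 8.40 and 8.76 with siNeg. The membrane glycoprotein LAMP1 rose by 0.93, the protective protein CTSA by 0.96 and the pump subunit ATP6V0E1 by 0.78. MCOLN1, a lysosomal calcium channel, rose by 0.95 and was detected on 1 of 3 siNeg arrays.

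The E-box CACGTG, a palindrome that MYC and the lysosomal regulators of the TFEB family can bind, was searched in the same windows. It was found in 10 of 28 promoters of the lysosome list (35.7%) and in 9 of 31 of the ribosome biogenesis list (29.0%), against 796 of 7256 promoters of the genes tested and 7.43% of all. Of the 10 lysosomal genes with a match, 8 rose and none fell, and of the 9 biogenesis genes, 4 rose and none fell. Over the whole lists 21 of 35 lysosomal and 20 of 38 biogenesis genes rose. The share that rose was thus higher with a match in the lysosome list and lower in the biogenesis list. Of all 796 tested genes with it, 246 rose and 158 fell. The search of the lysosome list was added after its rise was seen. Windows are shown for 3 of the genes that rose, with 1 match in capitals each, at chr1:43974883-43974928 (plus strand) for ATP6V0B, chr20:45891273-45891318 (plus) for CTSA and chr19:7522563-7522608 (plus) for MCOLN1.
ATP6V0B: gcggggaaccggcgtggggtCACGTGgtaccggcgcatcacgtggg
CTSA: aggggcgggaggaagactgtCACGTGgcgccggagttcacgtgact
MCOLN1: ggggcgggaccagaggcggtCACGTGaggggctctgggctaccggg
Each of the 3 promoters holds a second copy of the motif in the searched window.

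**Figure D4:**
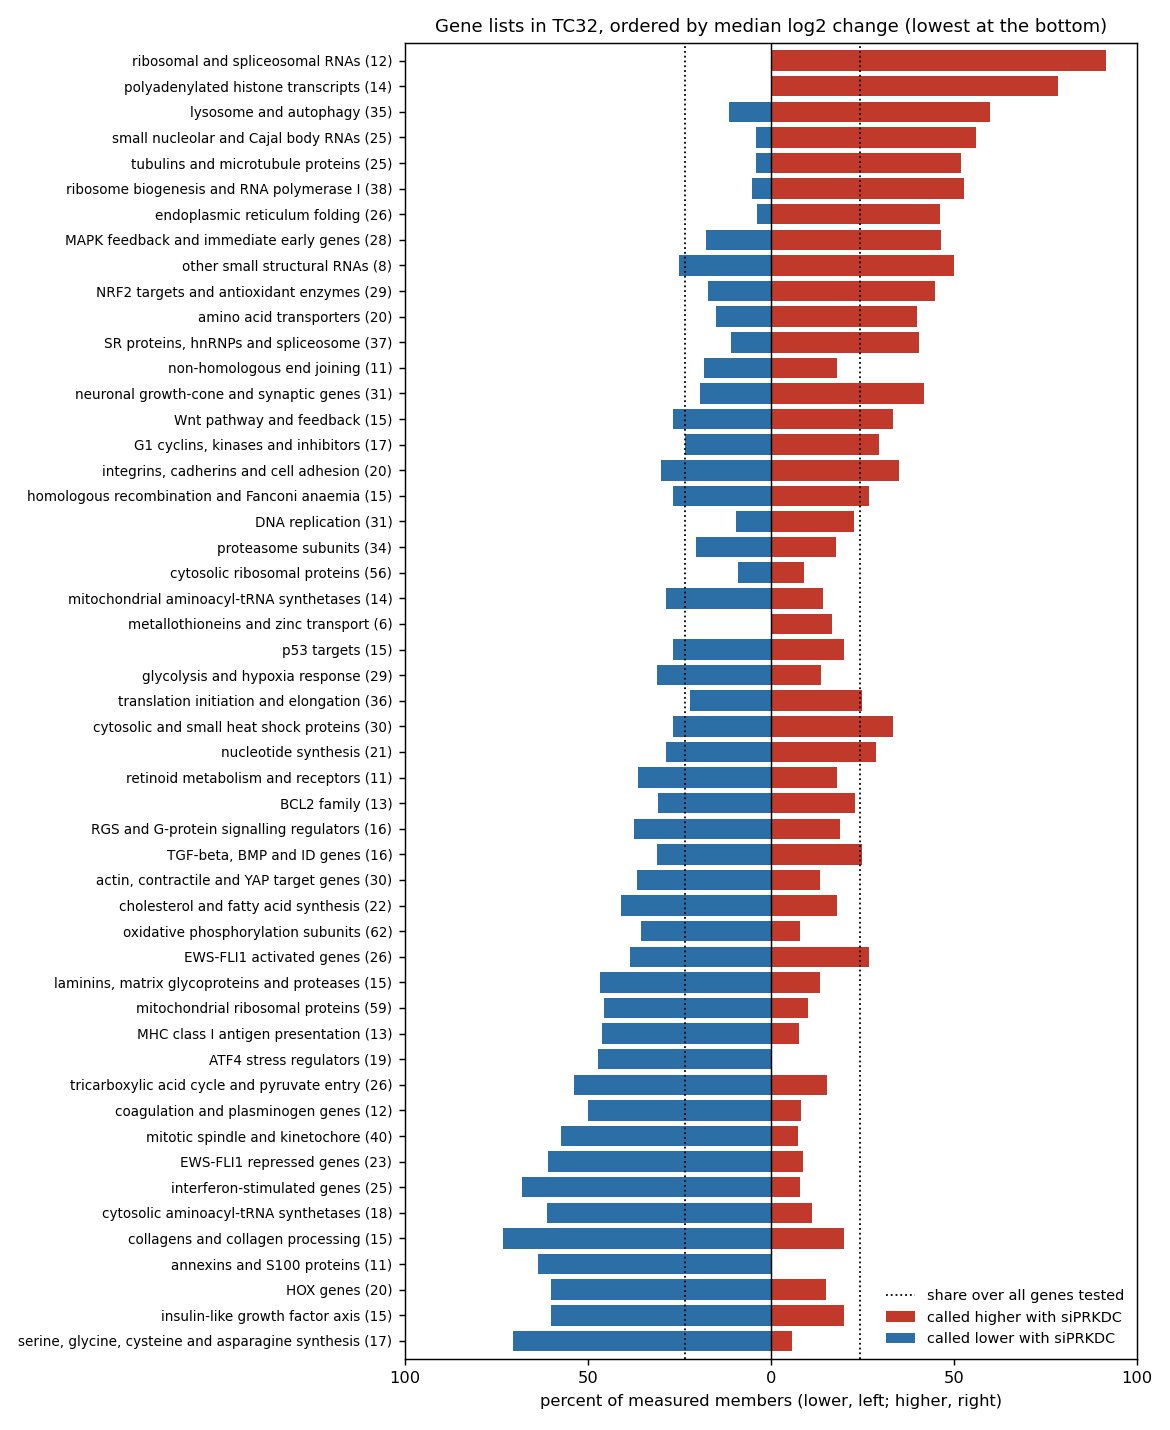
Percent of the measured members of 51 gene lists called higher (right) and lower (left) with siPRKDC, ordered by the median log2 change, with the number measured in brackets. Dotted lines mark 24.4% up and 23.5% down over all genes. Structural RNAs, histones and lysosomal genes are at the top, and amino acid synthesis, the insulin-like growth factor axis and HOX genes at the bottom.

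Genes of mitochondrial ribosomes, respiration and the tricarboxylic acid cycle leaned downward. All 59 mitochondrial ribosomal protein genes with a probe were measured, and 27 fell and 6 rose (median -0.22), unlike the cytosolic ribosomal proteins. MRPS15 read 7.49, 7.38 and 7.49 with siPRKDC, against 8.38, 8.53 and 8.19 with siNeg, and MRPL24 fell by 0.82. Of 62 oxidative phosphorylation subunits, 22 fell and 5 rose (median -0.16), with 3 rises without siNeg replicate 1 or siPRKDC replicate 3. SDHD, a subunit of complex II, fell by 0.97 and NDUFC1, of complex I, by 0.95, whereas another complex I subunit, NDUFB2, rose by 0.99. Around the tricarboxylic acid cycle 14 of 26 genes fell and 4 rose (median -0.26), with 2 rises without siPRKDC replicate 3. PCK2, the mitochondrial enzyme that makes phosphoenolpyruvate, fell by 1.33 and was detected on 1 of 3 siPRKDC arrays. SUCLG1 (-0.69) and GLUD1 (-0.64) also fell. PDK3, a kinase that shuts off pyruvate dehydrogenase, rose by 1.24 on its brightest probe, while its other probe changed by 0.21 and was not called.

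Glycolysis and hypoxia genes did not shift as a list, with 4 up and 9 down of 29 (median 0.02). ALDOC read 5.88, 5.96 and 5.88 with siPRKDC, against 7.47, 7.06 and 7.48 with siNeg, and the phosphofructokinase PFKP fell by 1.00. The angiogenic factor VEGFA rose by 0.75 and the glucose transporter SLC2A3 by 0.70. Of 22 cholesterol and fatty acid synthesis genes, 9 fell and 4 rose (median -0.16). The lipogenic regulator SREBF1 fell by 0.86 and the desaturase SCD by 0.77, while SQLE, of the cholesterol branch, rose by 0.48. Nucleotide synthesis was even, with 6 up (3 without siNeg replicate 1) and 6 down of 21, and GMPS, of guanine nucleotide synthesis, fell by 0.82.

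Mitotic genes leaned downward, and genes of DNA replication were called less often than the 48% over all genes (32.3%), a difference not tested. All 40 mitotic spindle and kinetochore genes were measured, and 23 fell and 3 rose (median -0.31). AURKA, the centrosomal mitotic kinase, read 8.02, 7.90 and 7.67 with siPRKDC, against 8.86, 8.72 and 8.88 with siNeg. Its other probe fell by 1.20. The phosphatase CDC25B (-0.74), the kinase AURKB (-0.64) and the cyclin CCNB2 (-0.62) fell too. In bulk RNA, fewer cells in mitosis and less of each RNA per cell cannot be told apart. Of 31 DNA replication genes, 7 rose and 3 fell (median 0.06), with the polymerase subunit POLA1 up by 0.70 and the primase PRIM1 down by 0.59, and without siNeg replicate 2 only 1 fell. The 17 G1 cyclins, kinases and inhibitors were split, with 5 up and 4 down (2 down without siNeg replicate 3). CDKN1A, the p21 inhibitor of cyclin-dependent kinases, read 7.77, 7.76 and 7.74 with siPRKDC, against 6.27, 6.32 and 6.64 with siNeg, and its partner kinase CDK2 fell by 0.96.

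The CHR motif TTTGAA, found near the start of many genes read in G2 and mitosis, was in 24 of 34 mitotic promoters (70.6%), against 9.69% of promoters of the genes tested and 15.4% of all. Of these 24 genes, 10 fell, 2 rose and 12 were not called, and of all 703 tested genes with it 181 fell and 138 rose. In the mitotic list as a whole 23 of 40 fell, a larger share than among the 24 with the match. Windows are shown for CCNB2 (chr15:59105097-59105142, plus strand) and for the separase gene ESPL1 (chr12:53268248-53268293, plus), which fell by 0.61.
CCNB2: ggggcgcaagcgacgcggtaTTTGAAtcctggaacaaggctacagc
ESPL1: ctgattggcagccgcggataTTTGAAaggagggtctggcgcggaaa
The motif, in capitals, begins at position -29 from the gene start in CCNB2 and at -31 in ESPL1.

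DNA repair lists went both ways. Among 11 non-homologous end joining genes measured, PRKDC included, 2 rose (1 without siPRKDC replicate 1) and 2 fell, and APTX, which cleans blocked DNA ends, rose by 0.49. The Ku subunit gene XRCC5 changed by 0.24 and was not called. Of 15 homologous recombination and Fanconi anaemia genes, 4 rose and 4 fell, with FANCE up by 0.59 and NBN up by 0.41. These counts were unstable, since without siNeg replicate 1 only 2 rose, without siNeg replicate 2 or 3 only 2 fell, and without siPRKDC replicate 2 only 1 fell. Of 15 p53 targets, 3 rose and 4 fell (median 0.02). The death effector BAX read 7.89, 7.72 and 7.96 with siPRKDC, against 6.69, 6.95 and 6.82 with siNeg. In the BCL2 family, 3 of 13 rose and 4 fell. There the protector BCL2L1 fell by 1.08 and BCL2L2 by 0.71, while BAX rose by 1.04 and the BH3 protein BID by 0.84.

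Developmental genes and genes tied to the fusion changed in several groups. Of 29 HOX-related genes with a probe, 20 were measured, and 12 fell and 3 rose (median -0.49). HOXB5 read 6.21, 6.08 and 6.14 with siPRKDC, against 7.33, 7.43 and 7.61 with siNeg. HOXC8 read 4.967, 4.9997 and 4.817 with siPRKDC, against 6.104, 6.139 and 5.991 with siNeg. HOXB13 fell by 1.00 and HOXD13, a posterior gene highly expressed in Ewing sarcoma, by 0.90. Falls thus came from the HOXB, HOXC and HOXD clusters. Genes known to be raised by the fusion went both ways, with 7 up and 10 down of 26 (median -0.19), and CCK rose by 1.26. Of 23 genes known to be held down by the fusion, 14 fell and 2 rose (median -0.39), COL3A1, PDGFRB, CCN2 and ACTA2 among them. TNC and CAV1 stand in both of these lists, and TNC is counted among the falls of each.

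Matrix and contractile genes overlapped with that group. In the collagen list, 15 of 35 genes with a probe were measured, and 11 fell and 3 rose (median -0.43). COL5A2 fell by 1.04, the collagen chaperone SERPINH1 by 0.86 and the lysyl hydroxylase PLOD3 by 1.03, whereas COL5A1 rose by 0.68. Of 15 laminin, glycoprotein and protease genes, 7 fell and 2 rose (median -0.22). TNC, the matrix protein tenascin C, read 7.04, 7.42 and 7.24 with siPRKDC, against 8.92, 8.98 and 8.88 with siNeg. The protease inhibitor TIMP1 fell by 1.19 and fibronectin, FN1, by 0.72. Among 30 actin, contractile and YAP target genes 11 fell and 4 rose (median -0.13). CCN2, a matricellular growth factor and YAP target, read 5.84, 5.86 and 5.86 with siPRKDC, against 7.17, 7.24 and 7.20 with siNeg, and the smooth muscle actin ACTA2 fell by 1.14. The CArG box, a binding motif of serum response factor, was in 3 of 26 of these promoters (11.5%), against 1.07% of promoters of the genes tested, and of the 3 genes CNN2 fell (-1.02), while of all 78 tested genes with it 22 fell and 15 rose.

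Annexins and S100 proteins fell beyond ANXA1. Of 11 measured, all on all 6 arrays, 7 fell and none rose (median -0.45), among them S100A13 (-1.14), S100A10 (-0.93) and ANXA7 (-0.85). In the coagulation and plasminogen list 6 of 12 fell and 1 rose. Factor XII, F12, fell by 1.08 and was detected on 1 of 3 siPRKDC arrays. Adhesion molecules were split, with 7 up and 6 down of 20. CDH11, a mesenchymal cadherin, read 7.31, 7.29 and 7.28 with siPRKDC, against 6.37, 6.18 and 6.06 with siNeg, and NCAM1 and CDH2 rose by 0.71 and 0.69, while NECTIN2 fell by 1.07.

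The insulin-like growth factor axis leaned downward. Of 15 members measured, 12 of them on all 6 arrays, 9 fell and 3 rose (median -0.58). With every array at a detection p below 0.01, 6 fell and 3 rose of 12. The median was -0.14 with no filter on dim probes. IGFBP5, a secreted binding protein, read 9.17, 9.29 and 9.04 with siPRKDC, against 10.75, 10.82 and 10.85 with siNeg, a 3.12-fold fall. IRS1, the adaptor of the receptor, fell by 1.12, and IGFBP7 fell by 0.95 and was detected on 1 of 3 siPRKDC arrays. IGF2R, the receptor that removes IGF2 from the surface, rose instead, with 8.44, 8.42 and 8.53 with siPRKDC, against 7.40, 7.22 and 7.37 with siNeg.

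Genes of tubulins and microtubule proteins leaned upward. All but 1 of the 14 tubulin and microtubule genes called were higher, 13 of 25 measured, with a median of 0.33, and the fall was not called without siNeg replicate 1 or 2 or siPRKDC replicate 1. TUBB4B read 9.65, 9.74 and 9.70 with siPRKDC, against 8.74, 9.07 and 8.94 with siNeg, and the neuronal isotype TUBB3 rose by 0.72. Of 31 neuronal growth-cone and synaptic genes measured, 13 rose and 6 fell (median 0.11), but only 21 of them were detected on all 6 arrays. Under a stricter filter (every array at a detection p below 0.01), 6 rose and 4 fell of 18. DPYSL3, which binds tubulin in growth cones, read 6.21, 6.10 and 6.19 with siPRKDC, against 4.42, 4.23 and 4.58 with siNeg. SEMA6A rose by 1.39, DPYSL4 by 1.17 and the filament protein INA by 1.01, while the repulsive guidance cue SEMA3A fell by 1.06.

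Interferon-stimulated genes leaned downward. Of 25 interferon-stimulated genes measured, 14 of them on all 6 arrays, 17 fell and 2 rose (median -0.41), with 1 rise without siNeg replicate 1. Under a stricter filter (every array at a detection p below 0.01), 9 fell and 1 rose of 14. IFITM1, a membrane protein that blocks virus entry, read 5.10, 5.44 and 5.34 with siPRKDC, against 7.19, 7.28 and 7.22 with siNeg. IFITM3 and IFITM2, which are close in sequence, fell by 1.04 and by 0.97, and ISG15 by 0.90. BST2, which tethers virus particles, fell by 1.17 and was detected on 2 of 3 siPRKDC arrays. In MHC class I presentation, 6 of 13 fell and 1 rose (median -0.23). HLA-E and HLA-B each fell by 0.89, and PSMB8, a subunit of the immunoproteasome, fell by 1.05. The leukocyte markers were near the floor, with CD68 alone detected on all 6 arrays.

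**Figure D5:**
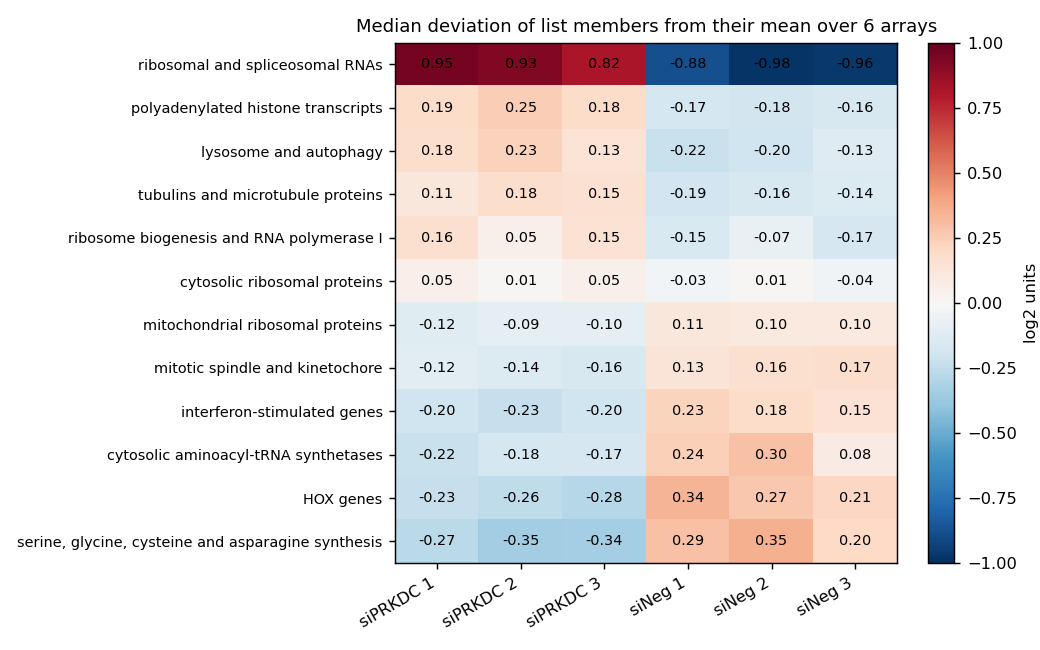
Median over the measured members of 12 gene lists (rows) of the deviation from each gene's mean over the 6 arrays, in log2 units, for each array (columns). Every siPRKDC array lies on one side of every siNeg array in all 12 lists drawn. The margin is narrowest for the cytosolic ribosomal proteins, where the lowest siPRKDC array is at 0.010 and the highest siNeg array at 0.009. The 12 were picked from the 51 lists. Groups overlap in others not drawn, among them nucleotide synthesis, p53 targets and heat shock proteins.

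Protein folding and signalling lists were mixed. Of 26 endoplasmic reticulum folding genes, 12 rose and 1 fell (median 0.23). SELENOS, of the degradation channel, rose by 1.08 and VCP by 0.62, and the fall was in XBP1 (-0.88), a transcription factor of the unfolded protein response. Cytosolic heat shock proteins were split, with 10 up and 8 down of 30. The near-identical genes HSPA1A and HSPA1B rose by 0.72 and 0.76, and HSPB1 fell by 0.77. Proteasome subunits were even, at 6 up and 7 down of 34 (4 down without siNeg replicate 2 or siPRKDC replicate 1), and PSMB3 fell by 1.24. Of 28 MAPK feedback and immediate early genes measured, 13 rose and 5 fell (median 0.22). IER3 rose by 1.27, the kinase SGK1 by 1.26 and the ERK phosphatase DUSP6 by 1.02, while FOS fell by 0.84. RGS and G-protein regulators had 3 up and 6 down of 16. TGF-beta, BMP and ID genes had 4 up and 5 down of 16, but 2 up and 3 down without siNeg replicate 2 or siPRKDC replicate 2 or 3. Wnt genes had 5 up and 4 down of 15, but 1 up and 3 down of the 9 that passed the stricter filter. Metallothioneins and zinc transport had 1 up and none down of 6, and none up without siNeg replicate 1 or 3 or siPRKDC replicate 2 or 3.

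The last question was which of the named changes were shared with HCT116. Over all 12 arrays, 10386 genes were tested and the TC32 change differed from the HCT116 change for 3321. Of the 33 genes compared by name, 31 differed and FLI1 and UBE2E3 did not pass. All but PRKDC, EWSR1 and FLI1 were picked as the 15 largest rises and 15 largest falls in the same TC32 arrays. That choice favours a larger change in TC32 than in HCT116, so the 31 is no measure of how often the lines differ. UBE2E3 changed by -2.06 in TC32 and -1.74 in HCT116, both called, a difference of -0.32 (SE 0.16, adjusted p = 0.131). ANXA1 fell in both lines (-2.87 in TC32 and -0.85 in HCT116), as did TFPI (-2.32 and -0.66), and the falls differed. TFRC rose by 1.52 in TC32 and by 0.75 in HCT116. NQO1 and KLF2 were detected on every HCT116 array and changed there by -0.15 and -0.09, neither called, against 1.94 and 1.90 in TC32 in this fit. RNA28SN5 rose by 3.07 in TC32 and by 0.69 in HCT116. CRYAB, DIRC3, AADACL4, COL3A1, NWD1 and PDGFRB were detected on no HCT116 array, and ALDH1A1 and FABP7 on 1 siPRKDC array and no siNeg array there, so no fall could be seen.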

How the data were processed

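The authors deposited mean probe intensity values on a linear scale, neither background-subtracted nor normalized, with a detection p-value for each, per the file headers. They also deposited log2 values that are quantile normalized within each cell line, as the sorted values show. The submitters' processing notes list GenomeStudio, R 3.0.2 and lumi; the genome build is not given in the sources here. The 6 TC32 arrays were processed alone with limma 3.58.1 (R 4.3.3). Correction of background used neqc (mean and SD inferred from detection p-values, offset 16), followed by quantile normalization and log2. Of 13849 kept probes, 11295 had 1 gene by the platform annotation, with symbols updated through RefSeq, and 2554 had no single gene. The 2 groups were compared with lmFit and eBayes (4 residual and 15.4 prior degrees of freedom), two-sided, with Benjamini-Hochberg adjustment over all genes and calls at an adjusted p below 0.05. Where no array of a group detected a probe, the fold is a bound, taken over the lowest signal detected on each array. The difference from HCT116 came from 1 limma model over 12 arrays, normalized together. The number of arrays limits the precision.

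The 51 lists (1687 entries) were described by counts and medians without a test. The text names PRKDC, EWSR1, FLI1, the 15 largest rises and falls among called genes whose groups do not overlap (passing over symbols without a descriptive name), and members of each list from its 6 smallest p-values. MTHFD1L, TARS1 and IARS1 fall outside this rule. Members and lists were chosen with earlier results of these data known. The fit was also run on simulated data with independent genes, few of them changed. Close to every second gene was called in these arrays, so that run does not test the calls. The main fit did not pair samples by replicate number. Deviations of same-numbered samples correlated at 0.0223, 0.0589 and 0.1311, which does not settle whether the numbers mark a pairing. A fit with the number as a block is given below. Alternatives changed the background correction, normalization, filter, probe rule, empirical Bayes options, replicate block and samples. Promoter sequences are from RefSeq.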

Additional observations from a re-analysis of the deposited data

Results flagged for a closer look

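The change with siPRKDC in TC32 differed from that in HCT116, by the test of the difference itself over 12 arrays, for 31 of the 33 genes compared by name. Over all genes it differed for 3321 of 10386. All but PRKDC, EWSR1 and FLI1 were picked for the size of their change in the same TC32 arrays, which favours a difference. The differences below are TC32 minus HCT116 on the log2 scale, and the 2 comparisons share no samples. PRKDC fell less in TC32 on its brightest probe, a difference of 1.25 (SE 0.19, adjusted p = 4.19e-05), and EWSR1 differed by 0.69.

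Among the structural RNAs, the rise in TC32 exceeded that in HCT116 by 2.38 for RNA28SN5, 2.04 for RNVU1-18, 1.96 for RNU1-3, 1.71 for RNA5S9, 1.98 for RNVU1-7 and 2.06 for RNU4-2. The siPRKDC arrays of TC32 also detected fewer probes than its siNeg arrays, and the part of RNA quality was not tested. For the other rises the difference was 1.97 for H2BC5, 2.10 for NQO1, 1.99 for KLF2, 2.13 for DPYSL3 and 1.59 for EBF3, 1.44 for GLCE, 1.65 for CES1P1, 1.28 for ST13 and 0.77 for TFRC.

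For the falls the difference was -3.17 for DHRS3, -2.94 for CRYAB, -2.78 for RGS4, -2.77 for DIRC3, -2.65 for ALDH1A1 and -2.79 for AADACL4. It was -2.49 for COL3A1, -2.36 for IL1RAPL1, -2.18 for NWD1, -2.10 for PDGFRB, -2.24 for FABP7 and -2.07 for CDC42EP5. ANXA1 differed by -2.01 and TFPI by -1.66, although both also fell in HCT116. CRYAB, DIRC3, AADACL4, COL3A1, NWD1 and PDGFRB were detected on no HCT116 array, so their difference says nothing of regulation in that line. The same holds for ALDH1A1 and FABP7, detected on 1 HCT116 siPRKDC array and no siNeg array. RGS4 and CDC42EP5 were near the floor there, detected on 2 of 3 siPRKDC and 1 of 3 siNeg arrays, as was RNU4-2. Of the rises in TC32, CES1P1 was detected on no HCT116 array and EBF3 on 1 siPRKDC array.

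Outside the genes compared, 891 of 2554 kept probes with no single gene were called in TC32, 448 higher and 443 lower with siPRKDC.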

How the results depend on the processing

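The number of genes changed at least 2-fold depended on the background step. It was 295 as reported, 62 without background correction, 100 with an offset of 50 and 63 with the authors' deposited log2 values, which compress folds. The other alternatives kept it between 246 and 314, and leaving out 1 array gave 286 to 321. The number of genes called ran from 3606 (detection p below 0.01 on all 6 arrays, 7105 genes) to 4520 (12 arrays fitted together), and from 3662 to 3950 without 1 array. With no filter on dim probes, 3683 of 20046 were called. With the replicate number as a block, 4336 genes and 6046 probes were called, 4204 of the genes also among the 4250, and no list count moved by more than 1 gene. The PRKDC change ran from -1.56 to -1.25 without 1 array. The share of calls that were up ran from 48.1% (cyclic loess) to 52.9%. Every alternative also brings the arrays to a common level, so this range does not test the balance. Of 171 genes named besides PRKDC, 168 kept their direction and call in every alternative. EWSR1 was called in 8, and XRCC5 in 1 (without siNeg replicate 2). FLI1, never called, ran from -0.0149 (without siNeg replicate 2) to 0.2674 without 1 array. List medians of nucleotide synthesis, G1 cyclins, p53 targets, other small structural RNAs, translation factors, mitochondrial tRNA synthetases, glycolysis, heat shock proteins, metallothioneins and Wnt genes changed sign in at least 1 alternative. Dim genes near the array floor have understated folds.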
